A study of Homo sapiens with 12 samples.

Results

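The genes described here are the 4 stathmins STMN1, STMN2, STMN3 and STMN4, the growth cone gene GAP43, doublecortin (DCX) and 4 collapsin response mediator protein genes, CRMP1, DPYSL2, DPYSL3 and DPYSL4. They were taken by name, 10 genes of the 19923 listed in each count file, with earlier results of these data known. RNA was sequenced from 2 human neuroblastoma cell lines, SK-N-BE2 and NGP, both labelled as MYCN-amplified and as having the genotype WT. Each line was treated for 6 days with STM2457, a small-molecule inhibitor of METTL3, the catalytic subunit of the enzyme that writes N6-methyladenosine (m6A) into messenger RNA, or with the solvent DMSO. The dose of STM2457 was 12 µM in SK-N-BE2 and 1 µM in NGP. Each of the 4 groups had 3 libraries, 12 in all. Line, dose and a batch mark read from the count headers change together, so they cannot be told apart wherever the lines are compared. What the mark stands for was not established. The series title names tumor growth and differentiation as its interest, and these genes belong to the outgrowth of neurites that accompanies neuronal differentiation.

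Neurites grow at their tips, in growth cones, where microtubules are taken apart and rebuilt as the tip is steered. Stathmins bind tubulin dimers and favour the shrinking of microtubules until they are phosphorylated, doublecortin binds along microtubules and stabilises them, and CRMPs bind tubulin and relay the signal of semaphorin 3A from its neuropilin and plexin receptors to the cytoskeleton. GAP43 sits under the growth cone membrane, binds calmodulin and is phosphorylated by protein kinase C. In the sympathetic nervous system, from which neuroblastoma arises, these genes are widely used as signs of immature or regrowing neurons.

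The libraries held between 47242379 and 58159937 reads assigned to genes, and the 10 genes had between 9 and 101813 reads in a library, STMN4 in NGP being the thinnest. Of 10 adrenergic neuroblastoma markers, 9 reached a level of 1 CPM (the count scaled to library size) in each group, and TH was under 1 CPM in NGP. Of the 6 Schwann and glial markers in the files, 2 or fewer reached 1 CPM in any group, with summed levels of 0.868 to 5.80 CPM over the libraries, and CDH19 was at 0 in all groups but NGP with STM2457. The 8 fibroblast and mesenchymal markers summed to 196 to 231 CPM in SK-N-BE2 with DMSO and 284 to 308 CPM with STM2457, and to 313 to 352 CPM and 697 to 731 CPM in NGP; 5 of the 6 tested were called higher in SK-N-BE2 and 6 of the 7 tested in NGP, beside 26.9% and 19.4% of all genes. The 6 endothelial and immune markers summed to 5.61 to 17.0 CPM, with PECAM1 and PTPRC at 0 in NGP. The mitochondrial share of the reads was 8.43% to 11.3% in SK-N-BE2 with DMSO and 8.23% to 10.3% with STM2457. In NGP it was 2.78% to 3.64% with DMSO and 6.46% to 7.16% with STM2457, so this share moved with the treatment in NGP. The mesenchymal sum moved with the treatment in both lines. What part either had in the results of SK-N-BE2 or NGP was not tested. Replicate 1 of NGP with DMSO stood furthest from its group, and the results that turn on it are given with and without it. In bulk RNA, fewer cells that express a gene and less RNA per cell cannot be told apart.

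In SK-N-BE2 all 10 genes differed between STM2457 and DMSO, 9 higher and STMN3 lower, beside 54.7% of the 14013 genes tested (26.9% higher and 27.8% lower). The calls are those of the quasi-likelihood test of edgeR at a Benjamini-Hochberg adjusted p under 0.05 over all genes tested. The median log2 fold change of the 10 was 0.63, against -0.02 over all genes. In NGP 6 of the 10 differed, STMN1, GAP43, DPYSL2, DPYSL3 and DPYSL4 higher and STMN4 lower, beside 41.7% of the 13610 genes tested (19.4% higher and 22.2% lower), with a median of 0.53 against -0.03. The 5 that rose in NGP also rose in SK-N-BE2; over the 12952 genes tested in both lines 21.3% were called in the same direction. STMN4 alone of the 10 was called in opposite directions, as were 4.96% of those genes. All 10 genes passed the filter on low counts in every fit. The groups did not overlap for any of the 10 in SK-N-BE2 and for 7 in NGP, where 62.2% and 54.7% of all tested genes also did not overlap.

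**Figure D1:**
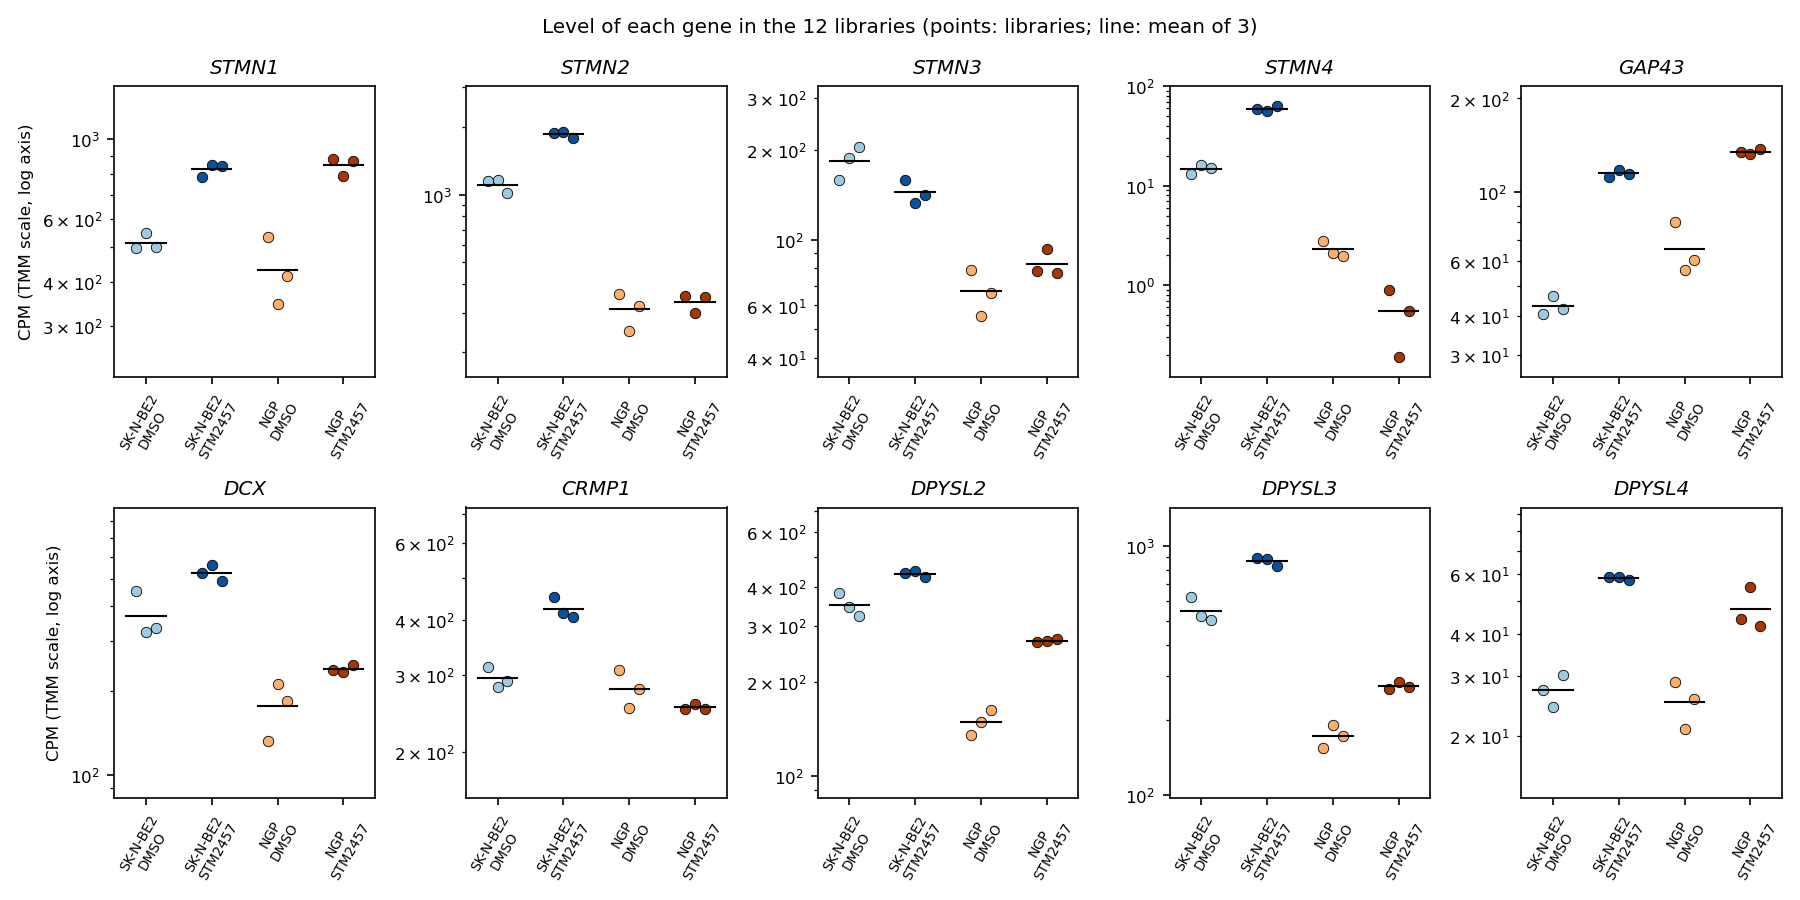
Level of each of the 10 genes in the 12 libraries, in CPM after TMM scaling on a log axis with its own range in each panel; points are libraries and lines are the means of 3. STMN4 spans from 0.193 CPM in an NGP library with STM2457 to 62.7 CPM in an SK-N-BE2 library with STM2457, while STMN1 and GAP43 rise with STM2457 in both lines.

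STMN1 encodes stathmin 1, the cytosolic member of the family, which is found in dividing cells of many tissues. It lies at chr1:25884181-25906991 on the minus strand of GRCh38. In SK-N-BE2 STMN1 stood at 496, 546 and 501 CPM in the DMSO libraries and at 786, 846 and 843 CPM with STM2457. In NGP it stood at 533, 346 and 415 CPM with DMSO and at 881, 792 and 870 CPM with STM2457. Every treated library of each line was above every control library of that line, and the 2 treated groups overlapped, as did the 2 control groups. The fitted change was 1.56-fold in SK-N-BE2 (log2 0.64, SE 0.09, edgeR adjusted p = 4.46e-05) and 1.93-fold in NGP (log2 0.95, SE 0.15, adjusted p = 0.00161). The difference between the lines' log2 changes, SK-N-BE2 minus NGP, was -0.29 (SE 0.18, edgeR adjusted p = 0.235), and without replicate 1 of NGP with DMSO it was -0.49 (adjusted p = 0.00563).

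STMN1 is shown by its sequence because its transcript is unusual among the 10 for the letters GGACT, the form of the m6A recognition motif that METTL3 is best known to methylate. Its canonical GENCODE 44 transcript of 1443 bases holds 4 GGACT, or 2.77 per kb, above 97.0% of the 20020 canonical protein-coding transcripts, whose median was 0.925 per kb. GAP43, which also rose in both lines, holds 0 in 1498 bases. The other 8 hold between 1 (STMN2, STMN3 and STMN4) and 8 (DCX, in 9086 bases), and their rates of 0.364 to 0.945 per kb reach no higher than the 51.3 percentile of all transcripts. Of the 4 in STMN1, 2 lie in the 5′ untranslated region and 2 in the 3′ untranslated region. The 3′ sites are given with 8 bases to either side, at chr1:25900891-25900911 and chr1:25900591-25900611 on the minus strand, followed by the single site of STMN3, also in its 3′ untranslated region, at chr20:63639861-63639881 on the minus strand. Capitals mark the motif, and a match is a description of the letters, since methylation was not measured in these files.
STMN1 first 3′ site: ctaatgtaGGACTgtataggt
STMN1 second 3′ site: atgctactGGACTtgaatggt
STMN3 3′ site: cttttgtgGGACTcagaaagg
STMN1 was the member with the densest motif and GAP43 the member with none. Both were called higher with STM2457 in both lines, as were DPYSL2, DPYSL3 and DPYSL4 at 0.625, 0.364 and 0.751 per kb. A link between the motif and the response was not tested.

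The promoter of STMN1 also differed in letters from the others at hand. RefSeq windows (GRCh38.p14) were matched for 7 of the 10 genes, all but STMN2, STMN4 and DPYSL2. Where a gene had several windows, the one with its start nearest to that of the canonical transcript was used and the others were not searched; the 2 starts were the same except for STMN3, where they lay 658 bases apart. A gene's outermost exon can begin before that start, so 237 of the 250 bases of DCX and 47 of those of STMN1 were exon of another transcript of the same gene in GENCODE 44. The 250 bases before the start were searched on both strands for 3 E-boxes: CACGTG, the form read by MYC and MAX, and CAGCTG and CAGATG, forms read by proneural basic helix-loop-helix factors. The windows of STMN3, GAP43, DCX, CRMP1, DPYSL3 and DPYSL4 held none of the 3 motifs. That of STMN1 held 2 CACGTG, a motif found in 6.34% of 35116 such windows, and neither CAGCTG (14.0% of windows) nor CAGATG (12.2%). The stretch with both STMN1 motifs in capitals, chr1:25906460-25906523 on the minus strand, is set beside the same stretch of GAP43, chr3:115623406-115623469 on the plus strand, each from 104 to 41 bases before the start of the canonical transcript, which lies inside the span given for the whole gene. Of the STMN1 stretch, 7 bases are exon of another transcript in GENCODE 44.
STMN1 promoter: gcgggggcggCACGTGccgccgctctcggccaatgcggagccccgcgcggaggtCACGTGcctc
GAP43 promoter: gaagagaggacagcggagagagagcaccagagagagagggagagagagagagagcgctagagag
The whole window of STMN1 was 73.2% G and C and that of GAP43 51.6%. No binding was measured here, so the motifs describe the 2 promoters and nothing more.

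STMN2, also called SCG10, is a neuron-specific stathmin held on membranes and carried into growth cones; it lies on chromosome 8. Its libraries stood at 1146, 1162 and 1015 CPM in SK-N-BE2 with DMSO and at 1880, 1892 and 1780 CPM with STM2457. In NGP they stood at 362, 249 and 322 CPM with DMSO and at 355, 300 and 352 CPM with STM2457. All SK-N-BE2 libraries were above all NGP libraries, and the 2 NGP groups overlapped. STMN2 rose 1.63-fold in SK-N-BE2 (log2 0.70, SE 0.09, edgeR adjusted p = 3.69e-05), and its log2 change in NGP was 0.09 (SE 0.14, adjusted p = 0.667). The changes differed between the lines by 0.63 (SE 0.18, edgeR adjusted p = 0.0142).

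STMN3, known as SCLIP, is a close neuronal relative of STMN2 at chr20:63639705-63657682 on the minus strand. It was the only one of the 10 called lower in SK-N-BE2. Its values there were 159, 189 and 206 CPM with DMSO and 159, 133 and 141 CPM with STM2457, the lowest control at 159.2 CPM lying just above the highest treated library at 158.7 CPM. In NGP they were 79.3, 55.2 and 66.2 CPM with DMSO and 78.6, 93.2 and 77.3 CPM with STM2457, and the groups overlapped. STMN3 fell to 0.762 of its control level in SK-N-BE2 (log2 -0.39, SE 0.10, edgeR adjusted p = 0.00562). Its log2 change in NGP was 0.29 (SE 0.15, edgeR adjusted p = 0.148), or 0.42 (adjusted p = 0.0066) without replicate 1 of NGP with DMSO. The 2 changes differed by -0.67 (SE 0.19, edgeR adjusted p = 0.0165).

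STMN4, or RB3, is the neuronal stathmin of lowest level in these lines, again on chromosome 8. With DMSO it stood at 13.2, 16.0 and 15.1 CPM in SK-N-BE2 and at 2.82, 2.09 and 1.98 CPM in NGP. With STM2457 it stood at 58.6, 56.0 and 62.7 CPM in SK-N-BE2 and at 0.897, 0.193 and 0.552 CPM in NGP. No group overlapped another, and the order ran from SK-N-BE2 with STM2457 through SK-N-BE2 with DMSO and NGP with DMSO to NGP with STM2457. The NGP values rest on 102 to 142 reads in a control library and 9 to 42 reads in a treated library, those of SK-N-BE2 on 755 to 3293. STMN4 rose 3.90-fold in SK-N-BE2 (log2 1.96, SE 0.10, edgeR adjusted p = 7.82e-09) and fell to 0.235 of its control level in NGP (log2 -2.09, SE 0.46, adjusted p = 0.00701). The difference between the lines was 4.07 on the log2 scale (SE 0.37, edgeR adjusted p = 3.77e-06), the largest of the 10.

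**Figure D2:**
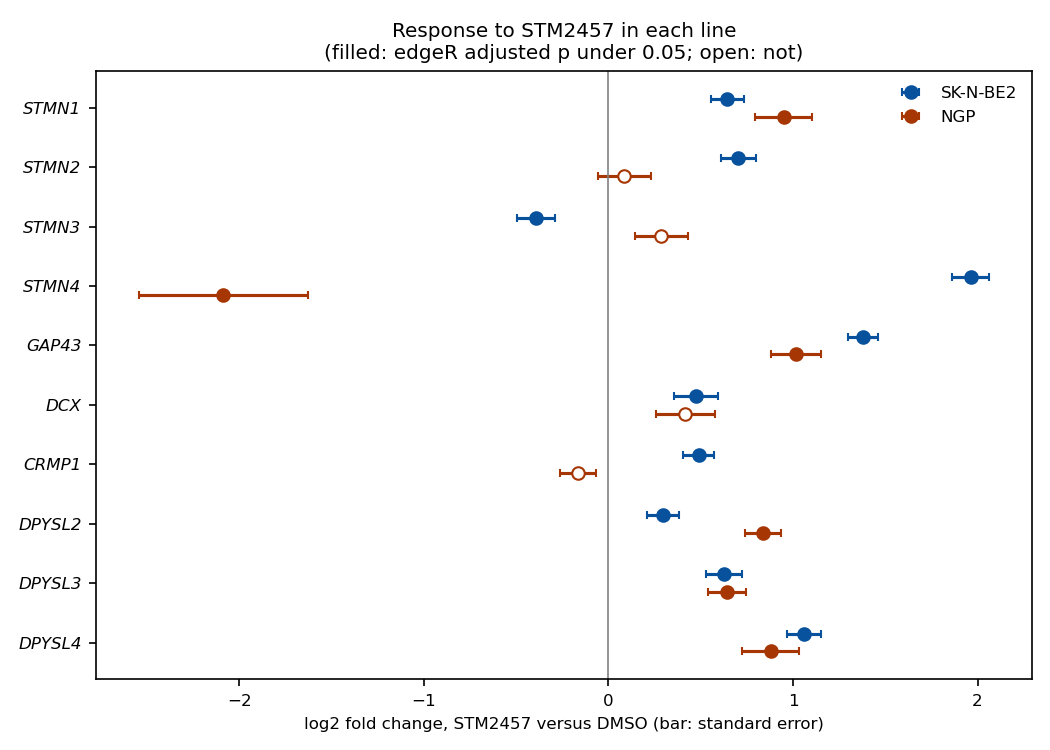
Log2 fold change of each gene, STM2457 versus DMSO, in SK-N-BE2 and in NGP with its standard error (n = 3 libraries a group); filled points passed the edgeR adjusted p of 0.05. STMN4 lies at 1.96 and -2.09, while DPYSL3 lies at 0.63 and 0.64.

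GAP43, at chr3:115623324-115721490 on the plus strand, encodes the growth-associated protein of advancing and regenerating axons. It stood at 40.7, 46.3 and 42.1 CPM in SK-N-BE2 with DMSO and at 112, 118 and 115 CPM with STM2457. In NGP it stood at 80.0, 56.2 and 60.7 CPM with DMSO and at 135, 133 and 137 CPM with STM2457. The 4 groups did not overlap, with NGP above SK-N-BE2 under each treatment and both treated groups above both control groups. GAP43 rose 2.60-fold in SK-N-BE2 (log2 1.38, SE 0.08, edgeR adjusted p = 3.14e-08) and 2.02-fold in NGP (log2 1.02, SE 0.14, adjusted p = 0.000671). The difference between the lines was 0.38 (SE 0.16, edgeR adjusted p = 0.0904), and without replicate 2 of NGP with DMSO it was 0.47 (adjusted p = 0.027).

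DCX, at chrX:111293779-111412429 on the minus strand, encodes the microtubule-binding protein of migrating neuroblasts. Its levels in SK-N-BE2 were 453, 322 and 333 CPM with DMSO and 525, 561 and 493 CPM with STM2457. Its levels in NGP were 132, 211 and 184 CPM with DMSO and 238, 232 and 247 CPM with STM2457. The treated libraries were above the controls in both lines, and the controls were the more scattered, with SDs of 72.4 and 40.0 CPM against 34.1 and 7.44 CPM. DCX rose 1.39-fold in SK-N-BE2 (log2 0.47, SE 0.12, edgeR adjusted p = 0.00442), while the 1.33-fold change in NGP (log2 0.42, SE 0.16, adjusted p = 0.0655) missed the threshold. The NGP change passed it in a fit of all 12 libraries (log2 0.44, edgeR adjusted p = 0.0304), with DESeq2 (0.43, adjusted p = 0.0377), and without replicate 1 (0.25, edgeR adjusted p = 0.0179) or replicate 2 (0.57, edgeR adjusted p = 0.016) of NGP with DMSO. The changes of the 2 lines differed by 0.07 (SE 0.22, edgeR adjusted p = 0.859).

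CRMP1, at chr4:5748084-5893086 on the minus strand, encodes a CRMP phosphorylated downstream of semaphorin 3A. It stood at 313, 281 and 290 CPM in SK-N-BE2 with DMSO and at 452, 416 and 406 CPM with STM2457. In NGP it stood at 307, 252 and 279 CPM with DMSO and at 251, 258 and 251 CPM with STM2457. Only treated SK-N-BE2 stood apart, and the other 3 groups overlapped with their neighbours in order of level. CRMP1 rose 1.40-fold in SK-N-BE2 (log2 0.49, SE 0.08, edgeR adjusted p = 0.000288), against a log2 change of -0.16 in NGP (SE 0.10, adjusted p = 0.213). The difference between the lines was 0.67 (SE 0.13, edgeR adjusted p = 0.00119). On the other strand, exons of EVC cover 2.72% of the exon length of CRMP1, and reads were counted without regard to strand.

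DPYSL2 encodes CRMP2, which carries tubulin dimers to growing microtubule ends and whose binding is released by the kinases CDK5 and GSK3B; the gene lies on chromosome 8. It stood at 383, 346 and 323 CPM in SK-N-BE2 with DMSO and at 443, 449 and 433 CPM with STM2457. In NGP it stood at 135, 149 and 162 CPM with DMSO and at 267, 270 and 274 CPM with STM2457. All 4 groups were apart, and both SK-N-BE2 groups lay above both NGP groups. DPYSL2 rose 1.79-fold in NGP (log2 0.84, SE 0.10, edgeR adjusted p = 0.000308) and 1.23-fold in SK-N-BE2 (log2 0.30, SE 0.09, adjusted p = 0.0112). With all libraries in, it was the one gene called higher in both lines whose changes also differed between them, by -0.53 (SE 0.12, edgeR adjusted p = 0.00531).

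DPYSL3 encodes CRMP4, a CRMP that also bundles actin, at chr5:147390808-147510068 on the minus strand. It ranged from 505 to 622 CPM in SK-N-BE2 with DMSO and from 829 to 891 CPM with STM2457, and from 154 to 190 CPM and from 266 to 283 CPM in NGP. The 4 groups were apart. DPYSL3 rose 1.54-fold in SK-N-BE2 (log2 0.63, SE 0.10, edgeR adjusted p = 0.00013) and 1.56-fold in NGP (log2 0.64, SE 0.10, adjusted p = 0.00165). The lines' log2 changes differed by -0.0042 (SE 0.14, edgeR adjusted p = 1).

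DPYSL4 encodes CRMP3, the CRMP of lowest level here, at chr10:132186948-132205759 on the plus strand. It ranged from 24.4 to 30.3 CPM in SK-N-BE2 with DMSO and from 57.7 to 58.8 CPM with STM2457. In NGP it ranged from 21.0 to 28.9 CPM with DMSO and from 42.3 to 55.0 CPM with STM2457. Both treated groups stood above both control groups, which overlapped each other. DPYSL4 rose 2.08-fold in SK-N-BE2 (log2 1.06, SE 0.09, edgeR adjusted p = 9.18e-07) and 1.84-fold in NGP (log2 0.88, SE 0.15, adjusted p = 0.00245), and the changes differed by 0.19 (SE 0.19, edgeR adjusted p = 0.469).

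The test of the difference between the lines thus called 5 of the 10 genes, STMN2, STMN4 and CRMP1 in favour of SK-N-BE2 and STMN3 and DPYSL2 in favour of NGP, beside 30.9% of the 14731 genes tested (17.0% and 13.9% in these directions). The median difference of the 10 was 0.13 on the log2 scale, against 0.02 over all genes. In the control libraries, 6 of the 10 genes were higher in SK-N-BE2 and GAP43 was lower, beside 71.1% of genes called (35.7% higher and 35.4% lower). STMN4 was 6.42-fold higher in SK-N-BE2 (log2 2.68, SE 0.24, edgeR adjusted p = 1.59e-07), and STMN2 was 3.56-fold higher (log2 1.83, SE 0.13, adjusted p = 1.01e-08). DPYSL3 followed at 3.19-fold, STMN3 at 2.76-fold, DPYSL2 at 2.36-fold and DCX with a log2 difference of 1.07 (SE 0.16). GAP43 in SK-N-BE2 was 0.656 of its NGP level (log2 -0.61, SE 0.11, edgeR adjusted p = 0.000248). CRMP1 and DPYSL4 had log2 differences of 0.08 (SE 0.09) and 0.12 (SE 0.13) with edgeR adjusted p of 0.443 and 0.438. STMN1 differed by 0.25 (SE 0.13, edgeR adjusted p = 0.0858), and passed the threshold with upper-quartile scaling (0.31, adjusted p = 0.0432) or without replicate 1 of NGP with DMSO (0.46, adjusted p = 0.000428). The groups of control libraries overlapped for STMN1, CRMP1 and DPYSL4 and were apart for the other 7, where 68.9% of all tested genes were apart.

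Levels of different genes were compared per kb of exon, as each gene's share of the summed reads per kb of the members in its family. In SK-N-BE2, STMN2 held 76.0% ± 2.18 (SD, n = 3) of the stathmin reads per kb with DMSO and 79.8% ± 0.749 with STM2457, and STMN1 held 13.4% ± 0.527 and 13.5% ± 0.740. In NGP, STMN2 held 59.0% ± 1.43 with DMSO and 46.5% ± 1.64 with STM2457, and STMN1 held 30.8% ± 1.30 and 44.4% ± 0.123. The share of STMN1 in NGP lay at 29.5% to 32.1% in the controls and at 44.3% to 44.6% in the treated libraries with no overlap, and that of STMN2 was lower in the treated libraries, at 44.6% to 47.5% against 57.7% to 60.5%. With the length of the canonical transcript in place of all exons, STMN1 and not STMN2 led in NGP, at 60.5% with DMSO and 73.3% with STM2457, and STMN2 still led in SK-N-BE2 at 56.6% and 59.5%, beside 34.7% and 35.0% for STMN1. STMN3 held 9.92% ± 1.62 and then 4.85% ± 0.439 in SK-N-BE2, with no overlap, and 9.90% ± 0.217 and 9.04% ± 1.54 in NGP. STMN4 held at most 1.99% in any library.

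Among the 4 CRMP genes, DPYSL3 led in SK-N-BE2 with 41.6% ± 1.32 with DMSO and 44.3% ± 0.512 with STM2457. In NGP CRMP1 led with 47.6% ± 3.62 with DMSO and 32.4% ± 0.482 with STM2457, its control libraries at 44.5% to 51.6% lying above its treated libraries at 31.9% to 32.9%. The share of DPYSL2 was lower with STM2457 in one line and higher in the other, with 26.2% ± 0.775 and then 22.2% ± 0.508 in SK-N-BE2, but 20.4% ± 1.87 and then 27.7% ± 0.866 in NGP. DPYSL4 held 4.80% ± 0.686 and then 6.88% ± 0.163 in SK-N-BE2, against 8.06% ± 1.08 and then 11.3% ± 1.31 in NGP. With the canonical lengths DPYSL3 held 36.1% against 33.7% for CRMP1 in SK-N-BE2 with DMSO, and CRMP1 held 55.0% and 39.2% in NGP. The leading gene of the 4 was thus unchanged in each line. DPYSL5, a further CRMP gene, is not in these totals. In NGP it stood at 48.0 CPM per kb of exon with DMSO and 46.8 with STM2457, beside 47.7 and 43.3 for CRMP1. In SK-N-BE2 it stood at 16.4 and 38.9, beside 76.5 and 121 for DPYSL3.

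**Figure D3:**
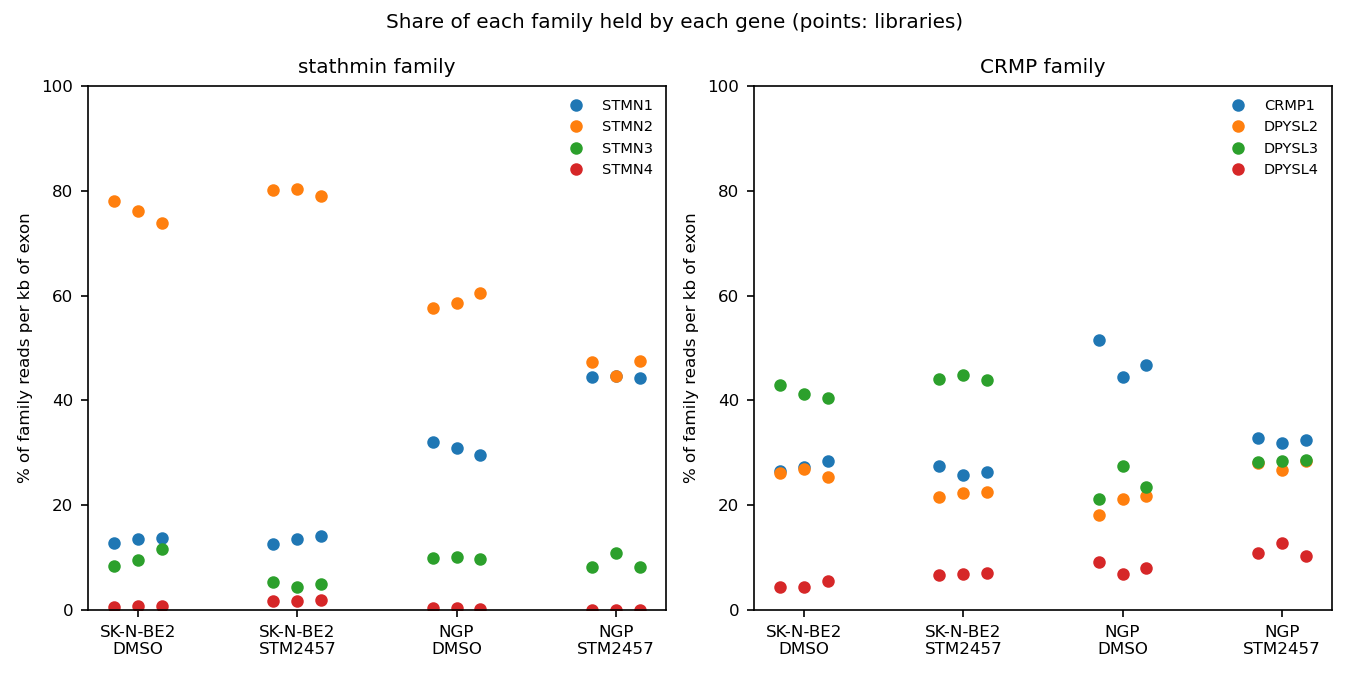
Share of the reads per kb of exon held by each stathmin (left) and each CRMP gene among the members (right) in the 12 libraries. Shares are in percent of the total of the genes shown, without DPYSL5, and points are libraries. In NGP the share of STMN1 goes from a mean of 30.8% to 44.4% with STM2457 and that of CRMP1 from 47.6% to 32.4%.

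Partners of these proteins were taken from 4 lists of genes, also chosen with earlier results of these data known. Of 20 other growth cone and cytoskeletal genes, 15 rose and 2 fell in SK-N-BE2 (median log2 fold change 0.38), beside 26.9% and 27.8% of all genes tested. In NGP 5 rose and 8 fell (median -0.06), beside 19.4% and 22.2%. The difference between the lines was called for 11 of the 20, all in favour of SK-N-BE2 (median 0.62), where 17.0% of all genes were called in that direction and 13.9% in the other. TUBA1A, the alpha-tubulin of young neurons, went in SK-N-BE2 from 696 ± 79.7 to 2614 ± 113 CPM (SD, n = 3) (log2 1.87, edgeR adjusted p = 2.25e-08) and in NGP from 433 ± 87.3 to 807 ± 71.5 CPM (log2 0.87, adjusted p = 0.00214). DPYSL5, which encodes CRMP5, rose in SK-N-BE2 (log2 1.21, edgeR adjusted p = 8.73e-07) and had a log2 change of -0.06 in NGP (adjusted p = 0.608). MAPT and MAP6, whose proteins stabilise microtubules, had log2 changes of -1.97 (edgeR adjusted p = 0.00013) and -1.32 (adjusted p = 0.000591) in NGP. In SK-N-BE2 the log2 change of MAPT was 0.26 (edgeR adjusted p = 0.0182) and that of MAP6 was -0.41 (adjusted p = 0.000454).

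Of 20 genes of semaphorin 3A signalling through the CRMPs, 6 rose and 2 fell in SK-N-BE2 (median 0.06), 8 called beside 54.7% of all genes, and 5 rose and 6 fell in NGP (median 0.14), 11 called beside 41.7%. The NGP count was 7 in place of 11 without replicate 1 of NGP with STM2457. In that fit 3816 of 13781 genes were called, in place of 5671 of 13610. The ligand SEMA3A went in SK-N-BE2 from 0.908 to 3.66 CPM (log2 1.97, edgeR adjusted p = 2.09e-05) and in NGP from 28.2 to 46.0 CPM (log2 0.68, adjusted p = 0.0167). The receptor subunit PLXNA4 went in SK-N-BE2 from 27.8 to 81.3 CPM (log2 1.51, edgeR adjusted p = 2.67e-08) and in NGP from 1.00 to 12.4 CPM (log2 3.61, adjusted p = 1.38e-05). PLXNA2 fell from 34.6 to 17.3 CPM in NGP (log2 -1.02, edgeR adjusted p = 0.000865). Other receptor subunits went other ways, and 2 were singled out after their values were seen. PLXNA1 was lower in both lines (log2 -0.84, edgeR adjusted p = 3.43e-06 in SK-N-BE2; -0.96, adjusted p = 0.000499 in NGP). The neuropilin NRP2 was higher in SK-N-BE2 (log2 0.68, edgeR adjusted p = 0.00015) and lower in NGP (-0.90, adjusted p = 0.000776).

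**Figure D4:**
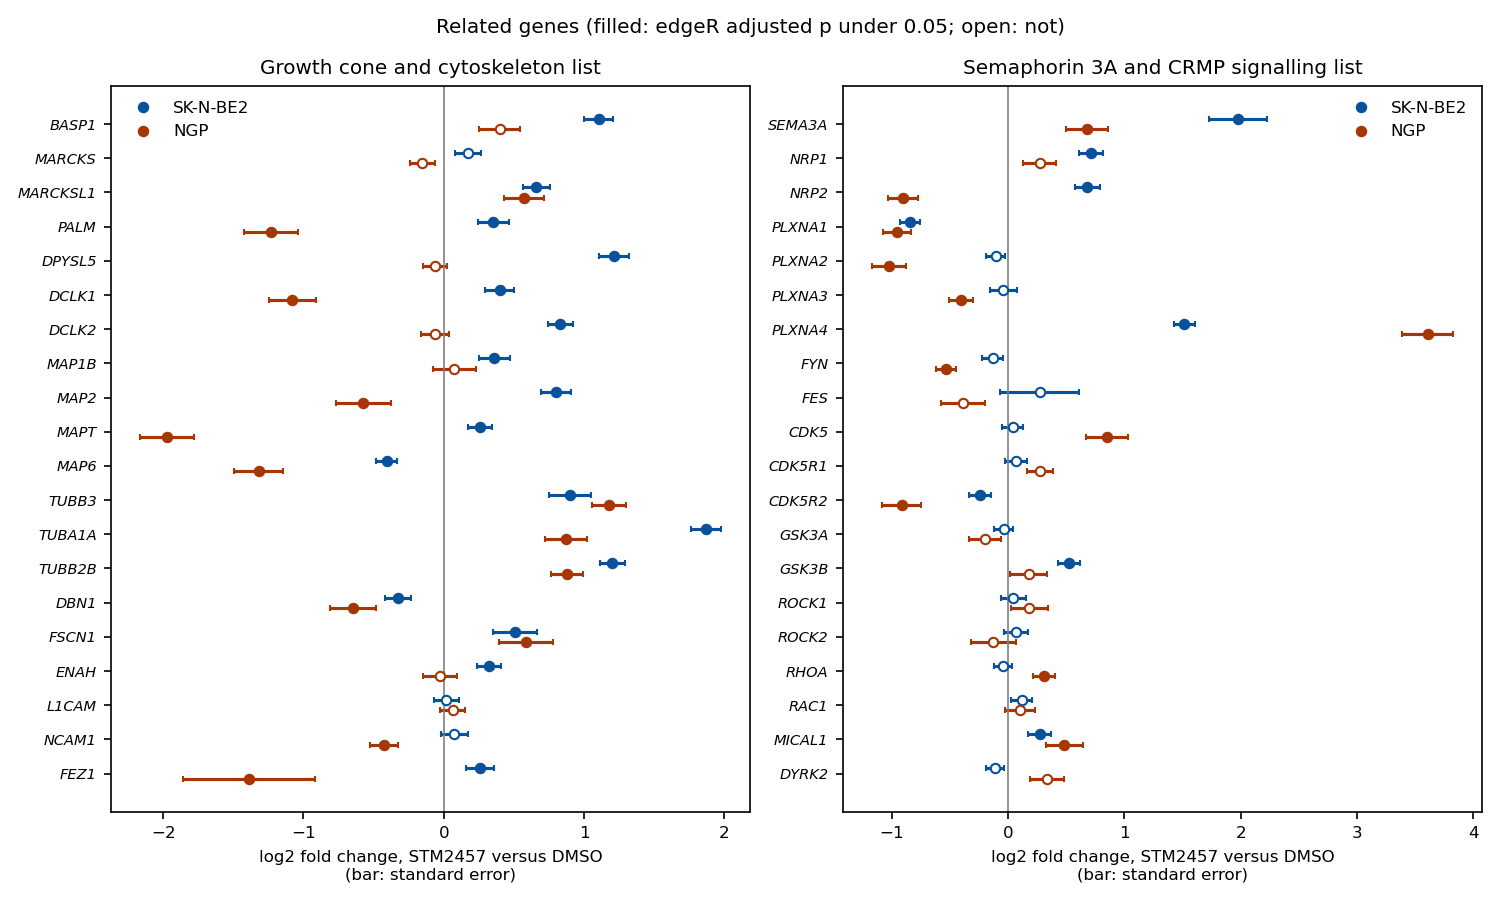
Log2 fold change with STM2457 of the growth cone and cytoskeletal genes (left) and of the semaphorin 3A and CRMP signalling genes (right) in each line, with standard errors (n = 3 libraries a group); filled points passed the edgeR adjusted p of 0.05. On the left, SK-N-BE2 has 15 genes called higher and NGP has 5.

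The third list held kinases, phosphatases and calmodulins that act on stathmins or GAP43. Of the 21 tested in SK-N-BE2, 10 rose and 1 fell (median 0.21), and of the 20 tested in NGP, 5 rose and 4 fell (median -0.02). Called genes of either direction were 11 and 9, near the 54.7% and 41.7% of all genes, and 26.9% and 19.4% of all genes were called higher. The 9 called in NGP were 5 when replicate 3 of DMSO, or replicate 1 or 3 of STM2457, was left out. Over all genes these fits called 4360 of 13795, 3816 of 13781 and 3919 of 13794, in place of 5671 of 13610. CAMK4 and CDK2, whose kinases phosphorylate stathmin 1, rose in SK-N-BE2, with log2 changes of 1.12 (edgeR adjusted p = 2.19e-06) and 1.11 (adjusted p = 6.32e-07). CDK2 also rose in NGP (log2 1.19, edgeR adjusted p = 7.86e-05), where MAPK8IP1, a scaffold of the JNK kinases, fell by 1.05 (adjusted p = 0.00123).

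The last list held 20 regulators of neuronal transcripts, of which 7 rose and 6 fell among the 18 tested in SK-N-BE2 (median -0.01), and 2 rose and 6 fell in NGP (median -0.07), beside 54.7% and 41.7% of all genes called in either direction. NHLH1, a basic helix-loop-helix factor of newborn neurons, went in SK-N-BE2 from 6.22 to 0.533 CPM (log2 -3.58, edgeR adjusted p = 5.08e-07) and in NGP from 75.0 to 3.91 CPM (log2 -4.29, adjusted p = 2.61e-06). Its relative NHLH2 fell in NGP by 2.15 (edgeR adjusted p = 0.00251), and SOX4 rose in SK-N-BE2 by 0.99 (adjusted p = 3.57e-07). REST, a repressor of neuronal genes whose best known targets include STMN2, was singled out after its values were seen. It went in SK-N-BE2 from 5.78 ± 0.582 to 7.86 ± 0.448 CPM (SD, n = 3) (log2 0.40, edgeR adjusted p = 0.0206) and in NGP from 6.11 ± 1.81 to 18.4 ± 1.45 CPM (log2 1.56, adjusted p = 0.000736).

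Finally, the 14696 other genes were ranked by how closely their log2 CPM followed that of each member over the 12 libraries, as the root mean square distance after each gene was centred. STMN1 was nearest to PRCD (0.0988) and RNF8 (0.100), STMN2 to MAP1A (0.180) and NACAD (0.186), and STMN3 to GTF2F1 (0.105) and PHRF1 (0.118). DPYSL2 was nearest to SOAT1 (0.0642) and DFFB (0.0946), and CRMP1 to FBXO33 (0.0694) and ACTR3B (0.0767). The nearest genes to STMN4 were ANKRD34A (0.641) and LRRCC1 (0.675). The distance is not scaled to a gene's own range or count noise, and STMN4 ranged from 0.193 to 62.7 CPM with few reads in NGP. Distances therefore cannot be compared between members. GAP43 was nearest to SPC24 (0.130), a mitotic gene, and MCM3 (0.139), a replication gene. Their mean levels were higher in NGP than in SK-N-BE2 and higher with STM2457 than with DMSO. This likeness to GAP43 follows from how they were picked. DCX was nearest to IQGAP1 (0.0937) and AFF1 (0.106), DPYSL3 to FAM124A (0.116) and SPRY1 (0.131), and DPYSL4 to WDR81 (0.148) and DDX23 (0.151). The 12 points of each pair share their libraries, lines and treatments, and the distances carry no test.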

How the data were processed

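Poly(A) RNA was taken from TRIzol extracts and made into libraries with a SMART cDNA kit, per the labels' protocols. The deposited counts are the authors' own: per the file headers, featureCounts 2.0.5 counted reads over exons of GENCODE 33 protein-coding genes, summed by gene name, with read pairs entered as single reads and no strand option. The submitters' processing notes name FastQC 0.11.5, Trimmomatic 0.36, HISAT2 2.1.0, Subread 1.5.3 and GRCh38; their Subread version differs from that of the headers. Since both ends of a fragment could count, 72.1% to 75.4% of values from 1 to 20 reads were even, and halved counts were tried as an alternative. STMN1 has 2 pseudogenes by name.

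From these counts, edgeR 4.0.16 (R 4.3.3) gave TMM factors, filterByExpr (minimum count 10), the quasi-likelihood test and CPM. Each line was fitted alone; the difference and the DMSO comparison used all 12 libraries. Replicate libraries differed by a chi-square per degree of freedom of 2.83 to 97 and were all kept. The labels do not say that replicates are separate cultures, so p-values measure only the spread between these samples, which may be technical. On simulated counts with 200 genes changed by a log2 fold of 1, the test recovered 97% in SK-N-BE2 (14003 genes), 93% in NGP (13623) and 55% for the difference (14493), with 3.48%, 4.62% and 7.56% of calls false. For the DMSO comparison (14482) these were 97% and 6.28%. The simulation gave every gene the same dispersion of 0.0225, held no outlying library and changed far fewer genes than were called here. These rates therefore need not hold for the data. Alternatives were DESeq2 1.42.0, its size factors, upper-quartile factors, other filters, a replicate block, a joint fit and leaving out each library. The members and the gene lists were chosen with earlier results of these data known. Named list genes are up to 2 per list and line, those called with the largest change among those reaching 1 CPM in the higher group; for likeness, the 2 nearest genes per member. GGACT was counted in GENCODE 44 canonical transcripts.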

Additional observations from a re-analysis of the deposited data

Results flagged for a closer look

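Each of the following genes was called by the edgeR test of the difference in response to STM2457 between SK-N-BE2 and NGP. Values are the log2 change in SK-N-BE2 minus that in NGP, with the adjusted p. Line, dose and the batch mark of the count headers cannot be told apart for any of these genes. Among the members, the difference was 4.07 for STMN4 (adjusted p = 3.77e-06), 0.67 for CRMP1 (0.00119), 0.63 for STMN2 (0.0142), -0.67 for STMN3 (0.0165) and -0.53 for DPYSL2 (0.00531). Leaving out 1 library kept all 5 of these calls.

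Among the growth cone and cytoskeletal genes, MAPT differed by 2.24 (edgeR adjusted p = 2.98e-06), DPYSL5 by 1.28 (2.2e-05), TUBA1A by 1.01 (0.00111) and MAP6 by 0.92 (0.00193), all towards SK-N-BE2. In semaphorin signalling SEMA3A differed by 1.31 (edgeR adjusted p = 0.00373) and PLXNA2 by 0.93 (0.000596), while PLXNA4 differed by -2.08 (5.14e-06). Of the kinase list MAPK8IP1 differed by 1.45 (edgeR adjusted p = 0.000139) and CAMK4 by 1.23 (0.0016). Of the transcript regulators SOX4 differed by 1.04 (edgeR adjusted p = 1.67e-05) and NHLH2 by 6.18 (0.0143). NHLH2 had 0 reads in SK-N-BE2 with DMSO, so its fitted value depends on the prior count and is no bound. It failed the filter on low counts in the SK-N-BE2 fit and entered the difference only through NGP. Its call therefore says nothing of a response in SK-N-BE2.

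Several markers differed too. DBH, DDC and GATA2 of the adrenergic list differed by -1.08, -1.26 and -0.92 (edgeR adjusted p = 0.000392, 3.11e-05 and 0.00116), and the glial marker ERBB3 by 3.16 (0.000315). Of the mesenchymal list PDGFRA differed by 1.10 (edgeR adjusted p = 0.000378), DCN by -2.22 (0.000655) and PDGFRB by -1.90 (2.23e-06). In NGP, DCN had only 2 to 14 reads in a library with DMSO, and ERBB3 only 6 to 24 reads in a library with STM2457. VWF, an endothelial marker with mean levels of 0.013 and 0.0559 CPM in NGP, differed by -3.74 (edgeR adjusted p = 0.0171), a fitted value that again depends on the prior count. It failed the filter on low counts in the NGP fit and entered the difference only through SK-N-BE2. Its call therefore says nothing of a response in NGP.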

How the results depend on the processing

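The 67 alternative counts of called members stayed within 1.5 times the counts reported: 10 in SK-N-BE2 throughout, 6 to 8 in NGP, 5 to 6 for the difference between lines and 7 to 8 for the control libraries. Over all genes, the calls in these alternatives ran from 6497 of 14213 to 7849 of 14196 in SK-N-BE2. In NGP they ran from 3816 of 13781 to 7897 of 13776. For the difference they ran from 3701 of 14944 to 6274 of 14943, and for the control libraries from 9207 of 12672 to 11072 of 14943. The 8 members in NGP came without replicate 1 of NGP with DMSO, the fit with 7897 calls. Of 670 refitted member changes, 661 kept direction and side of the threshold and 9 newly passed it, all given beside their genes (DCX and STMN3 in NGP, STMN1 and GAP43 for the difference, STMN1 in the controls); the cause was not tested. Same-numbered replicates did not deviate together (correlations of -0.0737 to 0.0876), and with a replicate block 10, 6, 5 and 7 members were called. Beside these counts stood 7522 of 14013, 5026 of 13610, 4025 of 14731 and 10147 of 14731 genes. Of the list counts, 22 of 536 moved by over 1.5 times. For the difference, the kinase list had 10 calls and 4 without replicate 3 of SK-N-BE2 with DMSO. It had 6 without replicate 1 or 2 of SK-N-BE2 with STM2457 or any replicate of NGP with STM2457. The semaphorin list had 8, and 13 without replicate 1 of NGP with DMSO, where the adrenergic list had 7 in place of 4. Calls over all genes moved in the same fits. From 4549 of 14731 they went to 3928 of 14925 without replicate 3 of SK-N-BE2 with DMSO. They were 3701 to 4163 in the fits where the kinase list had 6. Without replicate 1 of NGP with DMSO they were 6274 of 14943. The canonical transcript length, chosen after seeing the data, shifted 27 of the 32 mean family shares by more than the SD of their 3 libraries. At 9 to 42 reads, STMN4 in treated NGP had the widest error of the members.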
